A study of Mus musculus with 5 samples.

Results

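The milk fat globule is the membrane-wrapped lipid droplet that the secretory cells of the mammary gland release into milk, and 10 genes of its formation and of fatty acid uptake were followed here: Plin2, Plin3, Xdh, Btn1a1, Mfge8, Cidea, Cd36, Fabp3, Muc1 and Muc15. The genes were chosen by name, with earlier results of these data known. Each was read through the probe set annotated to its symbol that had the highest mean over the arrays. All 10 were found, with 11 probe sets in all, among the 19938 genes with a value. Total RNA of mammary gland was hybridised to 5 Affymetrix whole-transcript arrays, 1 per mouse. The mice were FvB/N females aged 8 weeks. The 2 controls carried the MMTV-rtTA transgene alone, and the 3 cyclin D1 mice carried rtTA and a CCND1 transgene (rtTA/CCND1). rtTA is a transcription activator that needs doxycycline, and the mouse mammary tumour virus promoter (MMTV) drives it mainly in mammary epithelium. The rtTA transgene was therefore shared by both groups. The treatment label gives 7 days of doxycycline but names a KE mutant of CCND1, and does not mention the controls. The series' title and design put the question of how gene expression differs in the gland after acute expression of cyclin D1, a regulatory subunit of the G1 kinases.

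In secretory alveolar cells, triglyceride droplets grow in the cytoplasm and move to the apical membrane. There a complex of butyrophilin (Btn1a1), xanthine oxidoreductase (Xdh) and the droplet coat protein perilipin 2 (Plin2) is thought to tie droplet to membrane before the globule buds off. Fatty acids for these droplets are made in the cell or taken from the blood, where CD36 and fatty acid binding proteins take part. Several of the same genes are also used by other cells of the gland: Cd36 by adipocytes, endothelium and macrophages, Plin2 by most cells that store lipid, Cidea by brown adipocytes and Fabp3 by muscle.

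Of the 10 genes, 7 were higher in cyclin D1 glands and 0 were lower. Those that rose were Plin2, Xdh, Btn1a1, Mfge8, Cd36, Fabp3 and Muc15, by 2.36 to 3.89 on the log2 scale, which is 5.14-fold to 14.9-fold (limma, Benjamini-Hochberg adjusted p of 0.0157 to 0.0441 over all genes). Muc1, Cidea and Plin3 did not pass. Over all genes 5.38% were called higher and 0.687% lower, and among the 1994 genes with the highest mean 36.0% were called higher. Those 1994 genes held the 7 that rose, but their mean includes the cyclin D1 arrays, and Plin2, Xdh, Mfge8 and, in control 1, Btn1a1 ranked at percentile 87.1 or lower in controls, so brightness was partly set by the rise. The median log2 difference was 3.19 over the 10 genes, against -0.05 over all genes and 1.59 among the 1994 brightest. At an unadjusted p under 0.05, 8 of the 10 were higher and 0 lower, against 16.2% and 10.1% of all genes. In 8 of the 10 genes every cyclin D1 value lay above both controls, which held for 22.4% of all genes, and in 0 did every value lie below them (22.6% of all genes). Because these are bulk samples, a change in the number of cells of a type and a change in RNA per cell cannot be told apart.

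The arrays differed in range as well as in these genes. The SD across genes was 0.735 and 0.926 on the control arrays and 1.20 to 1.38 on the cyclin D1 arrays, and the 2 controls correlated at r = 0.779 with each other, against 0.955 to 0.962 among the cyclin D1 arrays. Olfactory receptor genes, averaged per array, gave a rough floor of 2.52 and 2.38 on the control arrays and 1.97 to 2.24 on the others. The differences of the 10 genes are also given after the 5 arrays were brought to 1 common distribution by quantile normalization ("renormalized"). On that scale the median of the 10 genes was 2.01, against -0.02 over all genes, and the count of genes with the groups apart was again 8, against 20.1% of all genes. Plin2 alone of the 10 passed there, where 0.256% of all genes were called higher and 0.105% lower, while 6 of the 10 were higher and 1 (Plin3) lower at an unadjusted p under 0.05, against 9.33% and 9.40% of all genes. The mice were separate animals per the design text. Calls over the whole array rested on single mice. Without control 1, cyclin D1 replicate 1 or cyclin D1 replicate 2, limma called 0 of all 19938 genes and so 0 of the 10 (7, 7 and 8 of them at an unadjusted p under 0.05). Without control 2, 5 of the 10 were called higher, against 6.85% of all genes, and without cyclin D1 replicate 3, 4 were, against 299 of the 19938 genes. Without control 1 the median of the 10 genes was 2.55.

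**Figure D1:**
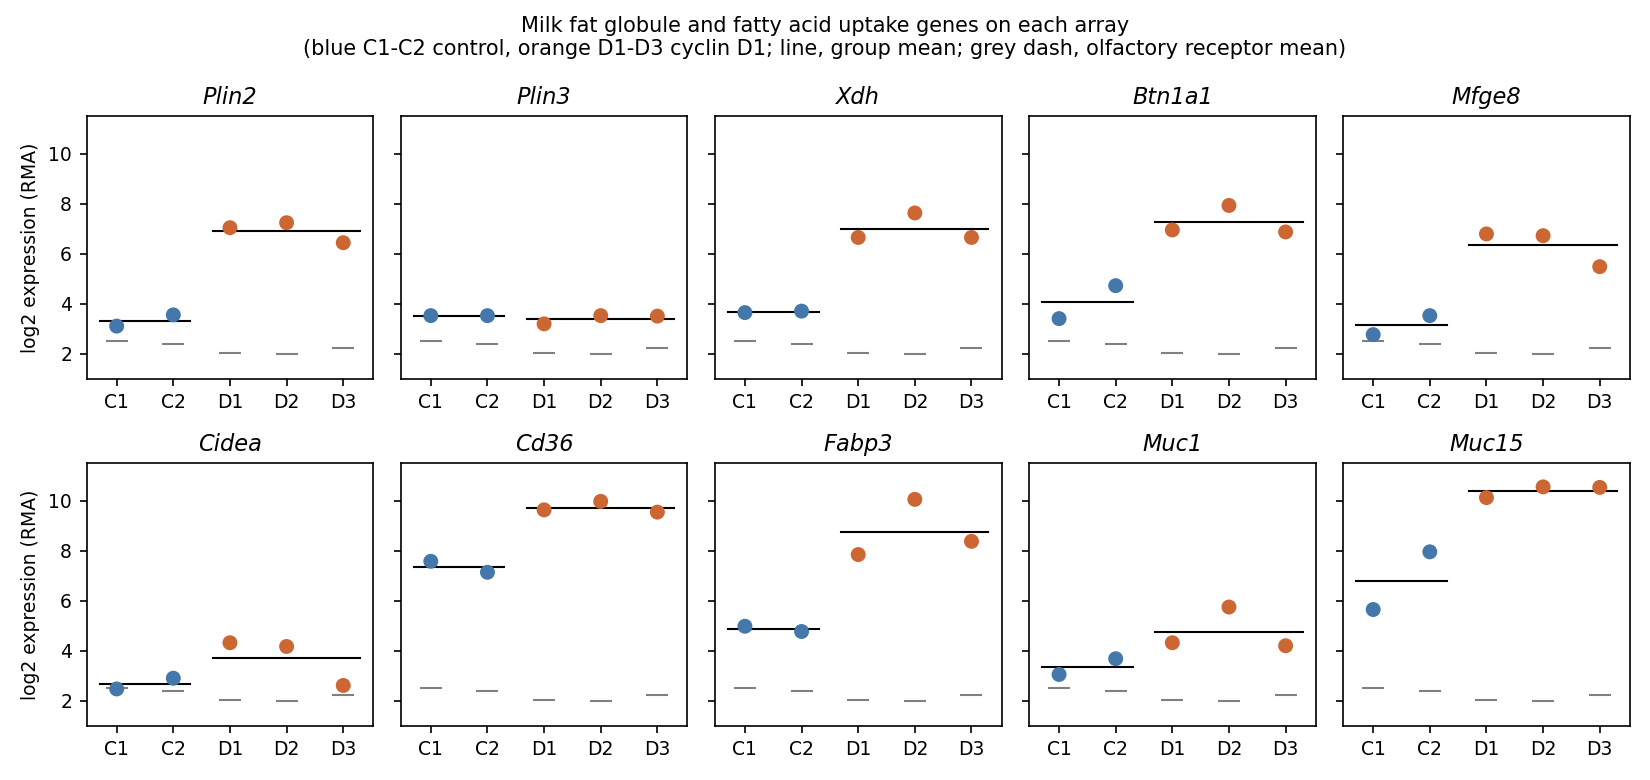
Log2 expression of each of the 10 genes on the control arrays (C1, C2) and the cyclin D1 arrays (D1 to D3), with group means as lines and the floor taken from olfactory receptor genes as a grey dash. In 8 panels all orange points stand above both blue points, and in the panels of Plin3 and Cidea the groups overlap.

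Plin2 encodes perilipin 2 (adipophilin), which coats lipid droplets and stays with them as they become globules. Its log2 expression was 3.10 and 3.55 in the controls and 7.04, 7.24 and 6.44 in the cyclin D1 glands. All 3 cyclin D1 values lay far above both controls. Group means were 3.32 ± 0.32 (SD, n = 2) and 6.91 ± 0.42 (SD, n = 3), which makes Plin2 12.0-fold higher (log2 difference 3.58, SE 0.29, limma adjusted p = 0.0157). By rank within its array, Plin2 moved from percentiles 66.1 and 80.1 to 97.5 to 98.2. After renormalization the difference was 2.79 (limma adjusted p = 0.0434), the 20th largest of 19938 genes.

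Plin3 encodes perilipin 3 (TIP47), a close relative that binds small nascent droplets in most cell types. Both controls read 3.52, and the cyclin D1 glands read 3.19, 3.52 and 3.50, so the groups overlapped. The log2 difference was -0.11 with a 95% interval of -0.51 to 0.29 (limma adjusted p = 0.671), and after renormalization it was -0.45 (limma adjusted p = 0.246). By rank Plin3 stood at percentiles 79.2 and 83.9 in the controls and 67.3 to 74.8 in cyclin D1 glands. The value 3.516754 was shared to the last digit by both controls and cyclin D1 replicate 2, so the control SD of 0.00 understates the error. Such identical values occurred on at least 2 arrays in 19.9% of all genes. The excess of Plin2 over Plin3 on the same array was -0.42 and 0.04 in the controls and 3.85, 3.73 and 2.94 in the cyclin D1 glands. The exact two-sided permutation test of that excess gave p = 0.20, the smallest value that 2 against 3 arrays allow.

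The promoter windows of these paralogous perilipin genes and of Cd36 are shown because Plin2 and Cd36 rose and Plin3 did not pass. Each runs from 250 bases before the annotated start to 50 after it, 5′ to 3′ on the gene's strand, in RefSeq's GRCm38.p6: Plin2 at chr4:86670010-86670309 (minus strand), Plin3 at chr17:56290462-56290761 (minus strand) and Cd36 at chr5:17835847-17836146 (minus strand). Capitals mark AGGTCA on either strand, the hexamer read by nuclear receptors such as the PPARs.
Plin2: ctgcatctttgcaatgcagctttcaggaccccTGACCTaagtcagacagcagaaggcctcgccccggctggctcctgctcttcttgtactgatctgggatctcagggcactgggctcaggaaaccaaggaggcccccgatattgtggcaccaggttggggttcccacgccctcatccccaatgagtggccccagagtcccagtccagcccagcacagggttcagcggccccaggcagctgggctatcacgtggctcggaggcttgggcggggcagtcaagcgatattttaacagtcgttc
Plin3: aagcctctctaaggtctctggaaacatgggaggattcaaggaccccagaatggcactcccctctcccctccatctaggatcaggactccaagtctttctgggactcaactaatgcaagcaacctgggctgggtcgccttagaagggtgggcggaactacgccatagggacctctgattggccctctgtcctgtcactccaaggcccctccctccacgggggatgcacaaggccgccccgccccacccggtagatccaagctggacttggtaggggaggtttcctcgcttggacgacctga
Cd36: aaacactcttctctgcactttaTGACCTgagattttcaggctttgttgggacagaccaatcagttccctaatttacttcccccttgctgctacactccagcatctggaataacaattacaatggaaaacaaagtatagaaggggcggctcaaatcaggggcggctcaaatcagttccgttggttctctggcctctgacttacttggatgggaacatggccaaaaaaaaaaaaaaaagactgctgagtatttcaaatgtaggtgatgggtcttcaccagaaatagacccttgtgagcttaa
A window was found for 6 of the 10 genes (Plin2, Plin3, Mfge8, Cd36, Fabp3 and Muc1). AGGTCA was found in 2 of these 6, and in 16.3% of all 32851 windows. It read TGACCT, with its first base 218 bases before the start of Plin2 and 228 before that of Cd36. Mfge8 and Fabp3, which also rose, had no match, and neither did Plin3 and Muc1, which did not pass. The printed windows were chosen by outcome, so they do not tie this hexamer to the rise. The direct repeat of this hexamer with 1 base between the copies, the STAT element TTCNNNGAA and the C/EBP core TTGCNNAA were found in 0 of the 6 windows, against 0.0396%, 8.3% and 10.8% of all windows. TATAAA was found in Muc1 alone, 31 bases before its start, and in 13.6% of all windows. The GC content was 60.7% in Plin2, 59.3% in Plin3 and 43.0% in Cd36, with a median of 52.7% over all windows. These are letter matches in short windows and carry no measurement of binding.

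Xdh encodes xanthine oxidoreductase, an enzyme of purine breakdown that is also a structural partner in globule secretion. It measured 3.64 and 3.70 in the controls and 6.65, 7.63 and 6.65 in the cyclin D1 glands. The groups lay apart by more than their ranges, and cyclin D1 replicates 1 and 3 shared an identical value. The rise was 9.89-fold (log2 difference 3.31, SE 0.34, limma adjusted p = 0.0168). After renormalization the difference of 2.24 had a limma adjusted p = 0.0510, just short of passing.

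Btn1a1, the butyrophilin of the globule membrane, measured 3.40 and 4.72 in the controls and 6.95, 7.93 and 6.87 in the cyclin D1 glands. Control 2 was the closer of the controls to the cyclin D1 glands, at percentile 95.1 of its array against 79.7 for control 1. The rise was 9.12-fold (log2 difference 3.19, SE 0.51, limma adjusted p = 0.0337), and the renormalized difference was 2.06 (limma adjusted p = 0.133). Among 7 measured relatives of the butyrophilin family 0 passed in either direction (0 also at an unadjusted limma p under 0.05), with a median of -0.20; at the 5.38% called higher over all genes, a list of this size can give 0 as background. The 3 relatives with the smallest p were Ermap, an erythroid membrane protein, at -0.53, Btnl1 at -0.52 and Btn2a2 at -0.21. The excess of Btn1a1 over Btn2a2 was 0.91 and 2.23 in the controls and 4.95, 5.53 and 4.44 in the cyclin D1 glands (exact two-sided permutation p = 0.20, the smallest possible).

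Mfge8 encodes lactadherin, a secreted protein of the globule surface that binds phosphatidylserine. It measured 2.76 and 3.52 in the controls and 6.79, 6.72 and 5.48 in the cyclin D1 glands. Cyclin D1 replicate 3 was the lowest of its group and still stood above both controls. The rise was 9.13-fold (log2 difference 3.19, SE 0.47, limma adjusted p = 0.0301). By rank Mfge8 moved from percentiles 45.6 and 79.1 to between 94.3 and 97.6, and the renormalized difference was 2.53 (limma adjusted p = 0.0630). Edil3, a relative of Mfge8, gave a log2 difference of -0.29 (limma adjusted p = 0.363, renormalized -0.09) and did not exceed the floor in either control.

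Cidea encodes a lipid droplet protein that was first studied in brown fat and is also made by lactating mammary epithelium. It measured 2.47 and 2.90 in the controls and 4.32, 4.17 and 2.61 in the cyclin D1 glands. Replicates 1 and 2 stood above the controls, while replicate 3 lay between them. The log2 difference was 1.01 with an interval of -0.38 to 2.41 (limma adjusted p = 0.303), and 0.90 after renormalization (limma adjusted p = 0.377). Control 1 was below the floor of its array, 2.52, so the control level is inexact. The brown adipocyte marker list, 7 genes, had a mean of 4.51 in cyclin D1 replicate 1 and of 3.02 to 3.20 on the other 4 arrays. Within it Ucp1, the uncoupling protein of brown fat, read 6.93 in replicate 1 and 2.81 to 3.58 elsewhere, and Cox8b read 7.21 in replicate 1 and 3.46 to 4.78 elsewhere. Cyclin D1 replicate 2, with Cidea at 4.17, had Ucp1 at 3.58 and Cox8b at 3.46. The part of brown adipocytes in the level of Cidea was not tested. Without replicate 1 the difference was 0.70, and without replicate 3 it was 1.56, neither passing.

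Cd36 encodes a membrane receptor that helps long-chain fatty acids into cells and is carried on the globule membrane. It was bright on all arrays, at 7.58 and 7.14 in the controls and 9.64, 9.98 and 9.55 in the cyclin D1 glands. The groups did not overlap, and replicates lay close together within each group. Group means were 7.36 ± 0.31 (SD, n = 2) and 9.72 ± 0.23 (SD, n = 3), which makes Cd36 5.14-fold higher (log2 difference 2.36, SE 0.21, limma adjusted p = 0.0165). By rank Cd36 was already at percentiles 99.8 and 99.5 in the controls, and the renormalized difference was 0.85 (SE 0.38, limma adjusted p = 0.306).

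Fabp3 is the fatty acid binding protein of heart and of lactating mammary cells. On the deposited values of all arrays it gave the largest log2 difference of the 10 genes. After renormalization Plin2, Mfge8 and Xdh exceeded it. Without control 2, Muc15, Btn1a1 and Plin2 did (4.76, 3.85 and 3.81 against 3.79). Without cyclin D1 replicate 2, Muc15 and Plin2 did (3.53 and 3.41 against 3.25). Fabp3 measured 4.98 and 4.77 in the controls and 7.85, 10.06 and 8.38 in the cyclin D1 glands. Replicate 2 stood well above the other cyclin D1 replicates. By rank Fabp3 was already at percentiles 98.4 and 95.3 in the controls, against 99.0 to 99.9 in the cyclin D1 glands. The rise was 14.9-fold (log2 difference 3.89, SE 0.65, 95% interval 2.25 to 5.54, limma adjusted p = 0.0363), and the renormalized difference was 2.09 (limma adjusted p = 0.212). Fabp3 was the only one of the 10 with a further probe set. The further probe set read 3.85 and 4.15 in the controls and 7.62, 9.93 and 8.01 in the cyclin D1 glands, a log2 difference of 4.52 (limma adjusted p = 0.0319 over all probe sets), with the same order of the cyclin D1 replicates.

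Of 22 other measured genes of fatty acid uptake and binding, 0 were called higher and 0 lower (3 and 1 at an unadjusted limma p under 0.05), with a median log2 difference of 0.30. Set beside 5.38% of all genes called higher, and 16.2% at the unadjusted threshold, these counts are near the background. Lpl, the lipase that frees fatty acids from circulating triglyceride, measured 6.06 and 7.51 in the controls and 8.66, 8.83 and 8.42 in the cyclin D1 glands (log2 difference 1.85, limma adjusted p = 0.0719, renormalized 0.08). Fabp2, of the intestine, read 2.16 and 2.40 in the controls and 1.61 to 1.85 in the cyclin D1 glands and did not exceed the floor on the cyclin D1 arrays or in control 1. Vldlr, a lipoprotein receptor, differed by 0.87 (limma adjusted p = 0.117, renormalized 0.48). Fabp4, the adipocyte relative of Fabp3, read 8.88 and 9.05 in the controls and 10.20, 8.07 and 9.62 in the cyclin D1 glands, lowest in replicate 2, where Fabp3 was highest. The excess of Fabp3 over Fabp4 was -3.91 and -4.29 in the controls and -2.34, 1.99 and -1.24 in the cyclin D1 glands (exact two-sided permutation p = 0.20, the smallest possible). The excess of Fabp3 over Fabp5, a relative found in epithelium and fat, was 1.56 and 0.13 in the controls and 1.12, 5.39 and 3.95 in the cyclin D1 glands, so the groups overlapped (exact two-sided permutation p = 0.40). The excess of Cidea over its relative Cidec also overlapped, at -1.60 and -1.21 against -0.74, 0.24 and -1.53 (exact two-sided permutation p = 0.40).

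Muc15 and Muc1 encode membrane mucins, heavily glycosylated proteins of the apical surface that pass onto the globule. Muc15 measured 5.65 and 7.96 in the controls and 10.13, 10.56 and 10.54 in the cyclin D1 glands. The controls stood far from each other, and both lay below all cyclin D1 values. The rise was 12.2-fold (log2 difference 3.61, SE 0.67, limma adjusted p = 0.0441), and 1.95 after renormalization (limma adjusted p = 0.0895). The difference was 2.45 without control 1 and 4.76 without control 2. Muc1 measured 3.05 and 3.68 in the controls and 4.32, 5.75 and 4.20 in the cyclin D1 glands. Every cyclin D1 value was above both controls, yet the difference of 1.39 (SE 0.52) did not pass (limma adjusted p = 0.172). It was 0.91 after renormalization (limma adjusted p = 0.299) and 0.90 without cyclin D1 replicate 2. Of 14 other mucins and sialomucins measured, 1 was called higher and 0 lower (5.38% and 0.687% of all genes), with a median within rounding of 0. The 1 was Cd164, a sialomucin of many cell types, at 1.41 (limma adjusted p = 0.0168), and its sign turned to -0.36 after renormalization. Muc19, a secreted mucin, differed by -0.56 (limma adjusted p = 0.116, renormalized -0.99) and Muc20 by 0.63 (limma adjusted p = 0.124, renormalized 0.45).

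**Figure D2:**
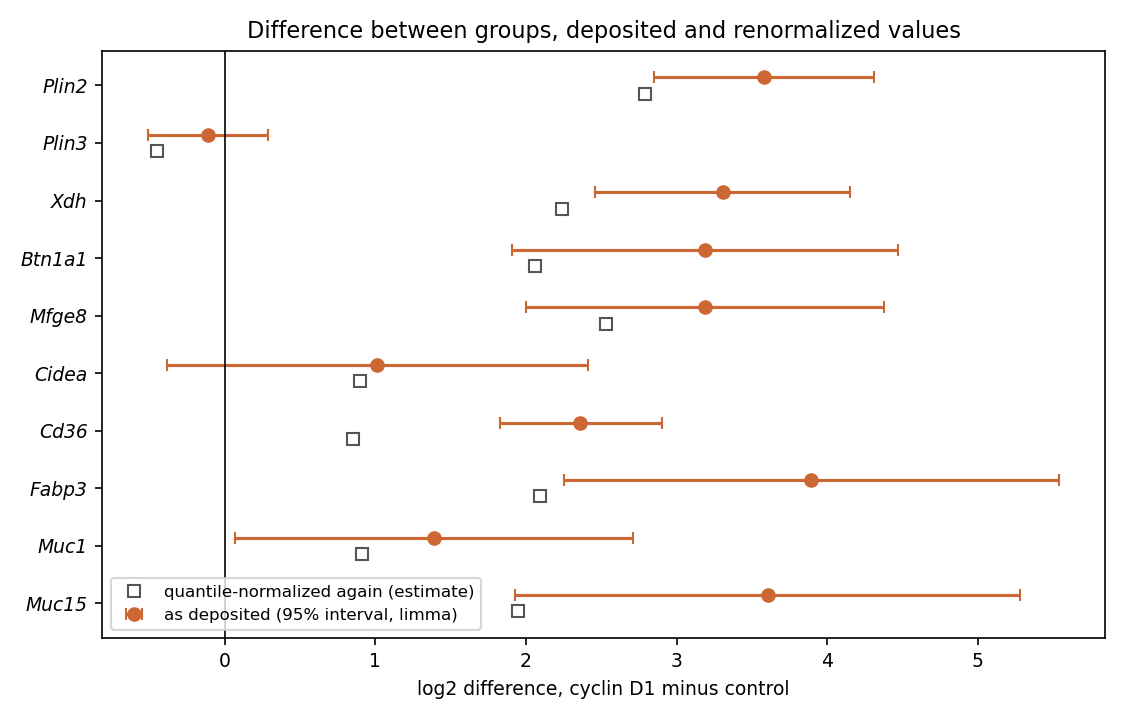
Log2 difference between groups for each gene, cyclin D1 minus control, as deposited with its 95% interval from limma (filled circles) and after renewed quantile normalization (open squares). The intervals of Plin3 and Cidea include 0, and the renormalized estimate of Cd36 is 0.85 against 2.36 as deposited, and that of Plin2 is 2.79 against 3.58.

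Other lipid droplet genes mostly did not pass. Of 16 measured, 2 were called higher and 0 lower (3 and 0 at an unadjusted limma p under 0.05), with a median of 0.21. Over all genes the shares were 5.38% and 0.687% (16.2% and 10.1% at the unadjusted threshold), so the 3 are near the background. Rab18, a small GTPase found on lipid droplets, measured 3.24 and 3.40 in the controls and 5.96, 6.45 and 5.85 in the cyclin D1 glands (log2 difference 2.76, limma adjusted p = 0.0147, and 2.03 with adjusted p = 0.0434 after renormalization). Abhd5, the co-activator of adipose triglyceride lipase, measured 3.55 and 4.09 against 7.06, 7.61 and 6.61 (log2 difference 3.27, limma adjusted p = 0.0169, and 2.14 with adjusted p = 0.0510 after renormalization). G0s2, an inhibitor of that lipase, differed by 0.78 (limma adjusted p = 0.157) and turned to -0.48 after renormalization. The adipocyte perilipin Plin1 read 4.26 and 4.38 in the controls and 4.61, 3.89 and 4.26 in the cyclin D1 glands, so the groups overlapped. The excess of Plin2 over Plin1 was -1.17 and -0.82 in the controls and 2.42, 3.35 and 2.18 in the cyclin D1 glands (exact two-sided permutation p = 0.20, the smallest possible).

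For other proteins found on globule membranes or taking part in their traffic, 29 genes were measured. Of these, 7 were called higher and 0 lower (16 and 1 at an unadjusted limma p under 0.05), with a median of 0.93. Over all genes the shares were 5.38% and 0.687% (16.2% and 10.1% at the unadjusted threshold). Among the 1994 genes with the highest mean, 36.0% were called higher. Abcg2, a transporter that moves riboflavin and drugs into milk, measured 3.48 and 3.17 in the controls and 6.11, 7.41 and 6.27 in the cyclin D1 glands (log2 difference 3.27, limma adjusted p = 0.0232, renormalized 2.42). Cltc, the clathrin heavy chain, measured 2.88 and 4.87 against 7.44, 8.23 and 7.38 (log2 difference 3.80, limma adjusted p = 0.0353, renormalized 2.81). Vapa, a tether of the endoplasmic reticulum, rose by 1.63 (limma adjusted p = 0.0359, renormalized 1.18). The other 4 were Bsg, Rac1, Rab1a and Gnb1, with differences of 0.93 to 3.28, of which Rac1 turned to -0.85 after renormalization. After renormalization 0 of the 29 passed. At an unadjusted limma p under 0.05, 10 were higher and 4 lower there, against 9.33% and 9.40% of all genes. Over the lists of related genes together, 10 of 86 were called higher, 12 without control 2 and 3 without cyclin D1 replicate 3. Without control 1, cyclin D1 replicate 1 or cyclin D1 replicate 2, where limma called 0 of all genes, 0 of the 86 were called (18, 22 and 26 higher at an unadjusted p under 0.05).

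**Figure D3:**
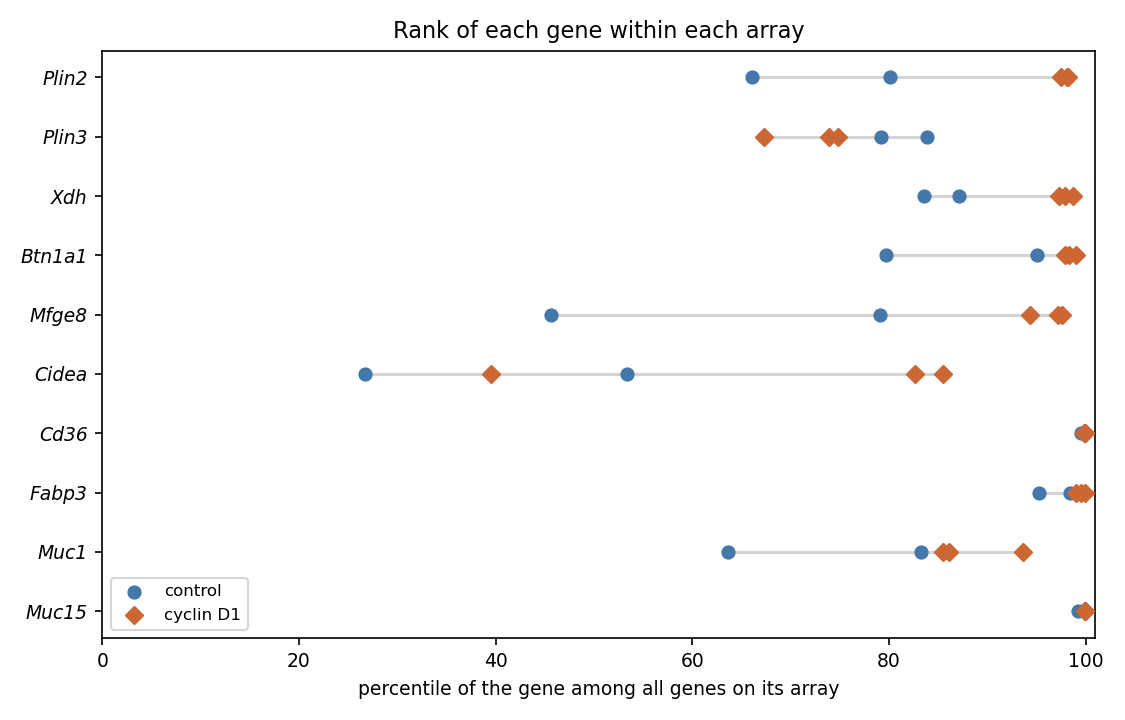
Percentile of each of the 10 genes among the 19938 genes on its own array, for controls (blue circles) and cyclin D1 glands (orange diamonds). Plin2, Xdh and Mfge8 reach percentile 94.3 or higher on the cyclin D1 arrays, Cd36 and Muc15 are at percentile 99.2 or higher everywhere, and Plin3 is at a lower percentile on every cyclin D1 array.

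On the deposited values, cyclin D1 replicate 2 was the highest of all arrays for 7 of the 10 genes. That array also had the widest spread across all genes (SD 1.38). After renormalization Cd36 (9.28) and Muc15 (10.19) were highest in replicate 3 instead. Control 1 was the lowest array for 7 of the 10. The median of the 10 genes was 3.46 and 3.69 in the controls and 6.87, 7.43 and 6.54 in cyclin D1 replicates 1, 2 and 3. The 7 measured milk protein genes had a mean level of 7.96 and 8.70 in the controls and 10.93, 11.38 and 10.44 in the cyclin D1 glands, with all 7 apart between groups and 4 called higher. Over all genes 22.4% were apart in this direction and 5.38% were called higher, or 36.0% among the 1994 brightest. After renormalization 5 of the 7 milk protein genes were apart and 0 were called (4 higher at an unadjusted limma p under 0.05). Their median difference was 0.98 in place of 2.08. Over all genes 20.1% were apart there and 0.256% called higher, with 9.33% higher at the unadjusted threshold. The 10 genes' median and the milk protein mean were both highest in replicate 2, but single milk protein genes were not alike. Of the 7, 3 were highest and 3 lowest there among the cyclin D1 arrays.

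On the deposited values, 4 of the 10 marker lists had means above both controls on every cyclin D1 array. These were milk protein, luminal, basal and macrophage. By mean percentile within the array, the basal list stood at 62.2 and 67.8 in the controls and 67.9, 67.3 and 66.7 in the cyclin D1 glands. After renormalization 0 luminal, basal or macrophage markers were called, with median differences of 0.39, 0.26 and 0.20. The 9 luminal epithelial markers had a mean of 3.18 and 3.33 in the controls and 4.26, 4.14 and 3.97 in the cyclin D1 glands, with 2 called higher (Epcam and Cdh1). The mean of the 10 white adipocyte markers was 5.23 and 5.31 in the controls and 6.03, 4.75 and 5.52 in the cyclin D1 glands, with 0 called (0 at an unadjusted limma p under 0.05). Their median difference was 0.11 as deposited and -0.81 after renormalization, where 1 of the 10 was positive. On the deposited values their mean was lowest in replicate 2, where 7 of the 10 milk fat genes were highest. The 7 macrophage markers ranged from 3.04 to 3.11 in the controls and from 3.47 to 4.53 in the cyclin D1 glands, highest in replicate 1, with 0 called (3 higher at an unadjusted limma p under 0.05). The 7 endothelial markers ranged from 2.80 to 3.33 in the controls and from 3.27 to 3.51 in the cyclin D1 glands, with 0 called (0 at an unadjusted limma p under 0.05). The 7 skeletal muscle markers ranged from 2.68 to 2.82 and from 2.50 to 2.66, near the floor. Basal and myoepithelial markers ranged from 3.13 to 3.50 and from 3.78 to 4.08, fibroblast markers from 3.85 to 5.05 and from 4.54 to 5.23, and lymphocyte markers from 3.20 to 3.69 and from 2.92 to 4.40. Of the 7 basal markers 1 was called higher (Acta2), and 0 were called among the muscle, fibroblast and lymphocyte markers (0 at an unadjusted limma p under 0.05) or the brown adipocyte markers (1 higher at an unadjusted limma p under 0.05). Over all genes 5.38% were called higher, and at the unadjusted threshold 16.2% were higher and 10.1% lower. The part of any of these cells in the 10 genes' levels was not tested.

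**Figure D4:**
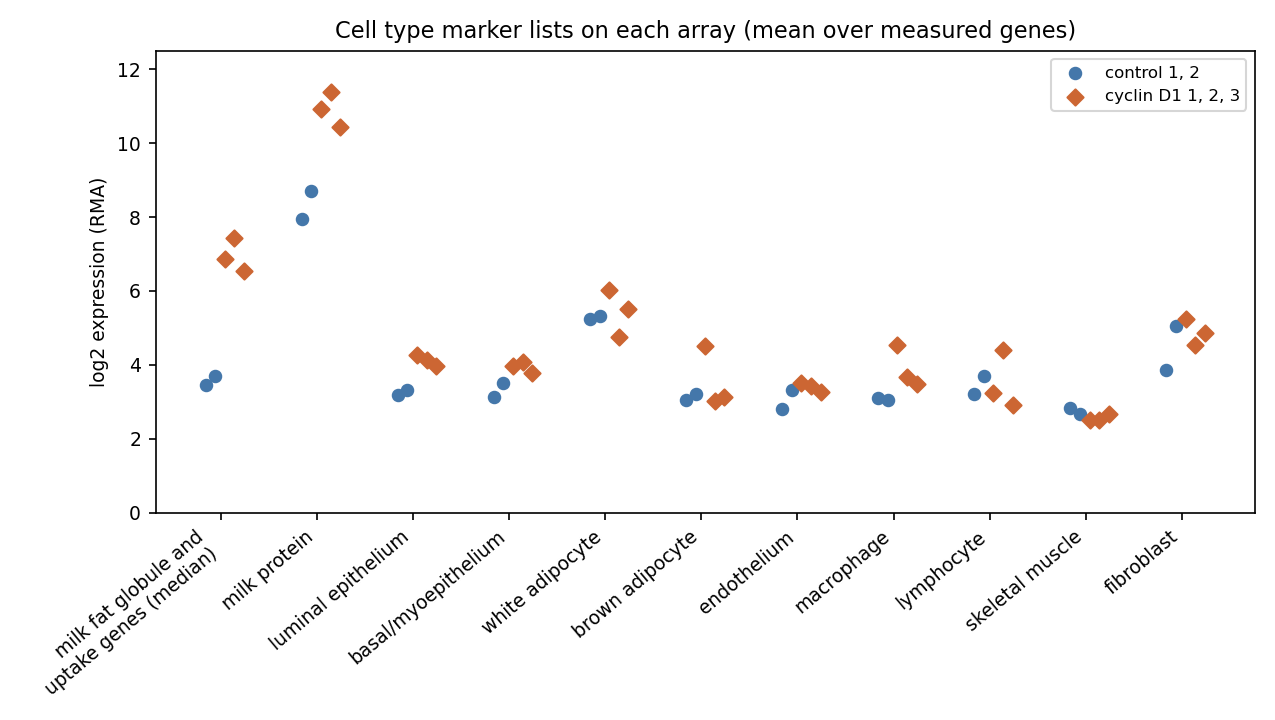
Median of the 10 milk fat genes and mean of each cell type marker list on the control arrays (blue circles) and the cyclin D1 arrays (orange diamonds), in log2 expression. As deposited, milk protein, luminal, basal and macrophage means stand above both controls on all cyclin D1 arrays. White adipocyte means overlap between groups.

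The 10 genes were also set against luminal epithelium. The mean of Krt8, Krt18, Krt19 and Epcam on each array (3.94 and 3.86 in controls, 4.89 to 5.60 in cyclin D1 glands) was subtracted from all genes. These belong to the 9 luminal markers, and each was apart between groups, with differences of 0.67 to 2.49. Of the markers left out, Cdh1 differed by 1.37, Cldn3 by 0.54, Cldn4 by 0.36, Prom1 by 0.02 and Krt7 by 0.00. The shifts below depend on this choice, and the mean of all 9 was not used. The median gene shifted to -1.43 and the 10 genes had a median of 1.81. On this scale 2.46% of all genes were called higher and 81.1% lower. The same 7 genes passed as higher, among them Plin2 at 2.20, and Plin3 passed as lower at -1.49, as most genes did. All 10 genes had the same SE here, 0.41, so passing depended only on the size of the difference. Whether the 7 genes rose beyond luminal epithelium was not tested by these calls. Muc1 came to 0.01 and Cidea to -0.36, neither passing. By construction, related genes whose deposited difference was smaller than that of the luminal mean, such as Bsg, Rac1, Vldlr, G0s2 and Muc20, took a negative sign here.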

How the data were processed

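The authors deposited log2 expression per probe set. The submitters' processing notes name Affymetrix Expression Console 1.1 with RMA, which corrects background, normalizes arrays to each other and summarises probes. The log base follows from the range of the values (0.830 to 12.9); other settings are not stated in the labels. No raw intensities were used, so presence above background was judged only against a floor, the average over 1027 olfactory receptor genes per array. Precision is limited by the number of arrays. Of 35556 probe sets, 21789 had 1 gene symbol, 1621 several and 12146 none in the platform annotation; 21698 matched RefSeq by Entrez identifier and 0 symbols needed updating. The highest-mean probe set stood for each of 19938 genes.

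Groups came from the sample titles. limma 3.58.1 in R 4.3.3 (lmFit, eBayes; 3 residual and 2.39 prior degrees of freedom) was fitted over all genes, two-sided, with Benjamini-Hochberg adjustment and a threshold of 0.05, and was tested on simulated data. The text names the 10 genes and, in each of 5 lists of related genes, the 3 with the smallest p; other genes named (the remaining called ones, list members paired with one of the 10, and single markers) were chosen after their values were seen. The 10 genes and all lists were chosen with earlier results of these data known. For 9 pairs of related genes, also chosen after values were seen, the difference on each array was compared by an exact two-sided permutation test; 7 gave p = 0.20 and 2 gave p = 0.40 (0.26 and 0.40 after adjustment over the 9). Promoter windows are RefSeq's. In all, 17 alternatives were run.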

Additional observations from a re-analysis of the deposited data

How the results depend on the processing

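Calls depended on whether the arrays were brought to 1 common distribution and on single mice, while directions held. Over 17 alternatives each of the 10 genes kept its sign, except Cidea, at -0.36 with luminal reference genes subtracted. The count of the 10 genes called higher, 7 as reported, was 1 after renewed quantile normalization, 2 with array weights, 4 after quantile normalization without control replicate 1, and 0 to 5 with each array left out. With an intensity trend 5 of the 10 were called higher, against 3.12% of all genes. Scale normalization and median centring left the count at 7. The median of the 10 genes, 3.19 as reported, became 2.01 after quantile normalization and 1.81 against luminal reference genes. It was 1.37 after quantile normalization without control replicate 1, and ranged from 2.55 to 3.45 with each array left out. Called lower were 0 as reported and 1 against luminal reference genes. The count of related genes called higher, 10 as reported, was 1 after quantile normalization, 5 with an intensity trend, 3 with array weights, 6 after quantile normalization without control replicate 1 and 0 to 12 with each array left out. Related genes called lower were 0 as reported, 51 against luminal reference genes, 1 after quantile normalization without control replicate 1 and 0 to 2 with each array left out. The cause of these changes was not tested.

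Over all genes 1072 were higher and 137 lower as reported, 51 and 21 after quantile normalization, 263 and 4 with array weights, and 490 and 16168 against luminal reference genes. Where 1 control was left out, the remaining control was assumed to vary like the cyclin D1 group. Same-number correlations of deviations from the group mean were -0.026 and 0.126. They cannot test whether replicate numbers pair the mice, because the deviations of the 2 controls mirror each other. The design text makes the mice separate animals. With the number as a replicate block, 8 of the 10 genes and 12 related genes were called higher, against 5.70% of all genes. Cidea was the gene added, at 1.56. Cyclin D1 replicate 3 has no control of its number, so this fit leaves it out of the differences, which equal those without it.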

Other observations

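Some globule membrane genes that did not pass shared the high reading of cyclin D1 replicate 2 with Fabp3; they were chosen after their values were seen. Slc34a2, a phosphate transporter of secretory epithelium, read 3.91 and 3.56 in the controls and 5.52, 8.21 and 4.75 in cyclin D1 replicates 1, 2 and 3 (log2 difference 2.43, limma adjusted p = 0.209). Pigr, the receptor that carries antibodies across epithelium, read 3.03 and 2.88 against 5.57, 7.16 and 4.65 (2.84, limma adjusted p = 0.0817). Snap23, a membrane fusion protein of the secretory route, read 3.26 and 3.83 against 5.84, 7.27 and 4.79 (2.43, limma adjusted p = 0.112). In each of them replicate 2 was highest and replicate 3 the lowest of the cyclin D1 arrays. All 3 values lay above both controls, which held for 22.4% of all genes. Replicate 2 also had the widest spread across all genes (SD 1.38). Others of that list that did not pass, such as Anxa5 (5.92, 5.28 and 4.77), Ppic and Aldoa, were highest in replicate 1. Fabp3 itself was lowest in replicate 1 among the cyclin D1 arrays. Milk protein genes did not share one order: Wap read 9.52, 11.65 and 8.95 in replicates 1, 2 and 3, whereas Csn2 read 12.05, 11.43 and 11.74. Fabp5, a fatty acid binding protein of epithelium, macrophages and fat, instead read 6.73 in replicate 1 and 4.67 and 4.44 in replicates 2 and 3, against 3.42 and 4.64 in the controls.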
